A study of Mus musculus with 6 samples.

Results

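Histone genes that are transcribed in step with DNA replication were compared between wild-type and Ets1-/- mice in CD4+ CD8+ (double-positive) thymocytes. The members were every probe set whose annotated symbols include a clustered or numbered histone gene (symbols starting with H1f, H2ac, H2bc, H3c or H4c and a digit in this annotation). This gave 68 of the 41345 probe sets on the array: 9 naming linker histone H1, 18 naming H2A, 16 naming H2B, 12 naming H3, 12 naming H4 and 1 naming both H1f4 and 3 H2B genes. Together they name 66 histone genes. Of these probe sets, 30 name 1 gene and 38 name several genes, because many of these genes are near copies of each other, and signal from such copies cannot be assigned to a single gene. The rule also took 7 probe sets of histones that are not of the replication-dependent kind or are best known from germ cells (H1f6, H1f7, H1f8, H1f10, H2ac1 and H2bc1), which are kept and named as such.

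Both groups were C57BL/6 mice aged 5 to 6 weeks, and the groups were named in the labels by genotype, WT and Ets1-/-, with 3 arrays each. Ets1 belongs to the ETS transcription factors and is abundant in lymphocytes. In both groups the thymocytes were fixed with formaldehyde and then isolated with magnetic beads for CD8 and afterwards for CD4. RNA came from TRIzol extraction and was amplified and labelled by in vitro transcription for Affymetrix arrays. Litter-mate cohorts served as the replicates, and the sources used here do not say how many animals went into each array. The p-values therefore measure the spread among these samples.

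Core histones H2A, H2B, H3 and H4 form the protein spool around which DNA is wound, and H1 binds the linker DNA between spools. Cells make most of this protein during S phase from replication-dependent genes, which lie in clusters, lack introns and give mRNAs that end in a conserved stem-loop rather than a poly(A) tail. The stem-loop is bound by Slbp, and the mRNAs are destroyed when replication ends, so their level is high in dividing cells. In the thymus, large double-positive blasts divide before they become small resting double-positive cells. The sources used here do not say if the labelling reaction was primed from poly(A) tails, and the deposited values are compared only between arrays for the same probe set.

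The promoters of 8 histone genes on which the values below turn are shown first, because histone genes are known for short, compact promoters. Each is the 140 bases before the annotated start, 5′ to 3′ on the gene's strand, from RefSeq on GRCm38.p6, and 61 of the 66 named histone genes had an entry. Capitals mark the CCAAT box (letters CCAAT), the TATA box (letters TATAAA), the octamer bound by Oct factors (letters ATTTGCAT) or an ETS core with its flank (letters CCGGAAG), searched on both strands and counted separately. H2bc12 and H2bc3 had lower means in Ets1-/- in the probe sets that name them alone. H2bc8 is 1 of the 3 genes named by the probe set with the opposite sign (17285851, at 1.32). Other pooled probe sets that name H2bc8 were at 0.44, -0.29, -0.33 and -0.37, so no direction is assigned to this gene. The remaining promoters stand for the other classes.
H2bc12, chr13:22035681-22035820, plus strand: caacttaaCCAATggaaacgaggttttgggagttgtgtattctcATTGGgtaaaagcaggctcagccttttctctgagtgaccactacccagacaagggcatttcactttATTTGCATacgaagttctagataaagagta
H2bc3, chr13:23746594-23746733, plus strand: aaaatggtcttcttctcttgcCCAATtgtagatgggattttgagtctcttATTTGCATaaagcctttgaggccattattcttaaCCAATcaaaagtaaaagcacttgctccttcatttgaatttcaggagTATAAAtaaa
H2bc8, chr13:23571260-23571399, plus strand: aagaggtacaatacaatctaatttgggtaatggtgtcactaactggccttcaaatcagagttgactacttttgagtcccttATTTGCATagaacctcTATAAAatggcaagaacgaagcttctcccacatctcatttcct
H2ac10, chr13:23533735-23533874, plus strand: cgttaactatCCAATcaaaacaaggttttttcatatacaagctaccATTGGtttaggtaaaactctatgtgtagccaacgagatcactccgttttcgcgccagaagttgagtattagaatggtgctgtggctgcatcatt
H2ac20, chr3:96220881-96221020, minus strand: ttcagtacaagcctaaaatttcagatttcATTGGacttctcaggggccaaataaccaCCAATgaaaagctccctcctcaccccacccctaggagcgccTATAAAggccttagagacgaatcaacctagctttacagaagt
H1f5, chr13:21780626-21780765, minus strand: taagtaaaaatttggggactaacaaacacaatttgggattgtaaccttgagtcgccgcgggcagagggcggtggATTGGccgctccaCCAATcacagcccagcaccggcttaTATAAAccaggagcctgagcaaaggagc
H3c10, chr13:21717488-21717627, plus strand: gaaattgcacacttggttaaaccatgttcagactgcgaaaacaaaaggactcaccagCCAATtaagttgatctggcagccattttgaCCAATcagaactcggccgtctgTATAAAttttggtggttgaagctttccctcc
H4c12, chr13:21750554-21750693, minus strand: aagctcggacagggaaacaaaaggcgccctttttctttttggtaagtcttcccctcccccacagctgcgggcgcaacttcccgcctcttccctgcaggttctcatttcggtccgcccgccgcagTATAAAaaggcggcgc

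These letters differ between classes. A CCAAT was held by 17 of 17 H2A windows and 14 of 15 H2B windows, by 7 of 9 for H1 and 7 of 10 for H3, and by 3 of 11 for H4. The octamer was held by 6 of 15 H2B and 4 of 17 H2A windows and by 0 of 9, 0 of 10 and 0 of 11 for H1, H3 and H4. H2A and H2B genes often lie head to head, so some of these windows overlap, as for H2ac12 and H2bc12. TATAAA was held by 4 of 9 H1, 6 of 17 H2A, 3 of 15 H2B, 3 of 10 H3 and 5 of 11 H4 windows. Over all 62 histone windows the shares were 77.4% for the CCAAT box, 33.9% for the TATA box and 16.1% for the octamer, against 23.4%, 7.21% and 0.935% of 32851 windows of the same length over all genes. CCGGAAG was in 0 of the 62 histone windows and in 5.37% of all windows. A match or its absence describes these letters in this window only.

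The arrays differed in level before any comparison of genes. Ets1-/- replicate 1 had a median of 3.66 on the log2 scale, and the other 5 arrays had medians of 4.19 to 4.33. Over all probe sets the median difference, Ets1-/- minus wild type, was -0.23, and it was -0.01 after each array was centred on its median, so both values are given where the shift matters. Pairs of arrays correlated at a Spearman's rho of 0.904 to 0.930 over probe sets in the same group and at 0.860 to 0.901 across groups. The single probe set for Ets1 had signals of 9.20 ± 0.11 and 9.09 ± 0.27 (SD, n = 3 each). The part of Ets1 that its probes cover is not given, so this does not check the labels. Of 11 measured genes of double-positive identity, among them Cd4, Cd8a, Cd8b1 and Rag2, 0 were called by limma at an adjusted p under 0.05 (1 at an unadjusted p under 0.05, Dntt at -0.46). Cd4 and Cd8b1 were well expressed, at means of 10.94 and 11.69 in wild type.

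Histone signals were on balance lower in the arrays labelled Ets1-/-, but no single histone probe set passed the test. By limma with Benjamini-Hochberg adjustment over all 41345 probe sets, 0 of 68 were called in either direction (smallest adjusted p 0.166), where 0.837% of all probe sets were called. At an unadjusted limma p under 0.05, 22 of 68 were lower (32.4%) against 7.42% of all probe sets, and 1 was higher against 3.64%. All 3 Ets1-/- values lay below all 3 wild-type values for 30 of 68 (44.1%), against 14.7% of all probe sets, and above them for 1 of 68, against 5.17%. The median difference was -0.52 over the members and -0.23 over all probe sets. Of the members 56 were below 0 (82.4%) and 12 above it, beside 71.5% of all probe sets below 0. With arrays centred on their medians 77.9% of the members were below 0, beside 51.5% of all probe sets.

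The counts were smaller with arrays centred on their medians, but this depended on the normalization. With arrays centred on their medians the members' median was -0.31, beside -0.01 over all probe sets, and 14 were lower at an unadjusted p under 0.05 (4.75% of all probe sets). The groups then did not overlap, with Ets1-/- lower, for 18 of 68 (8.41% of all). With quantile normalization instead, 26 were lower at an unadjusted limma p under 0.05 (6.24% of all) and 30 did not overlap (10.7%). With cyclic loess these counts were 21 (5.13% of all) and 29 (8.85%). Without Ets1-/- replicate 1 and without centring, 15 were lower at an unadjusted p under 0.05 (5.85% of all in that set of 5 arrays) and 30 did not overlap (16.4% of all). The number at an unadjusted p under 0.05 also depended on wild-type arrays, being 8 without wild-type replicate 1 (5.33% of all probe sets) and 9 without wild-type replicate 2 (4.70%).

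The members whose groups did not overlap, with Ets1-/- lower, were mostly those with clear signal. Of the 68, 36 had a mean over the 6 arrays above the 75th percentile of all probe sets (5.73), 12 lay between the median (4.13) and that level and 20 lay at or below the median. Among the 36 brighter ones 33 were below 0 (91.7%), with a median of -0.59 (-0.38 after centring, again with 91.7% below 0). All 10336 probe sets above that level had medians of -0.12 and 0.09, with 63.5% and 40.4% below 0. Groups did not overlap, with Ets1-/- lower, for 26 of these 36 (72.2%) beside 19.6% of all brighter probe sets, and for 15 (41.7%) beside 9.76% after centring. The 20 dim members had a median of -0.42, with 80% below 0, and of -0.21 after centring, with 75% below 0. For the 12 in between the medians were -0.15 (58.3% below 0) and 0.06 (41.7%). Over all probe sets the shares below 0 were 71.5% and 51.5%. On the array scale each brighter member was set against its own wild-type mean after centring, and the medians were 0.16, 0.00 and -0.16 on the wild-type arrays and -0.42, -0.58 and -0.34 on the Ets1-/- arrays. No Ets1-/- array reached the lowest wild-type array.

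**Figure D1:**
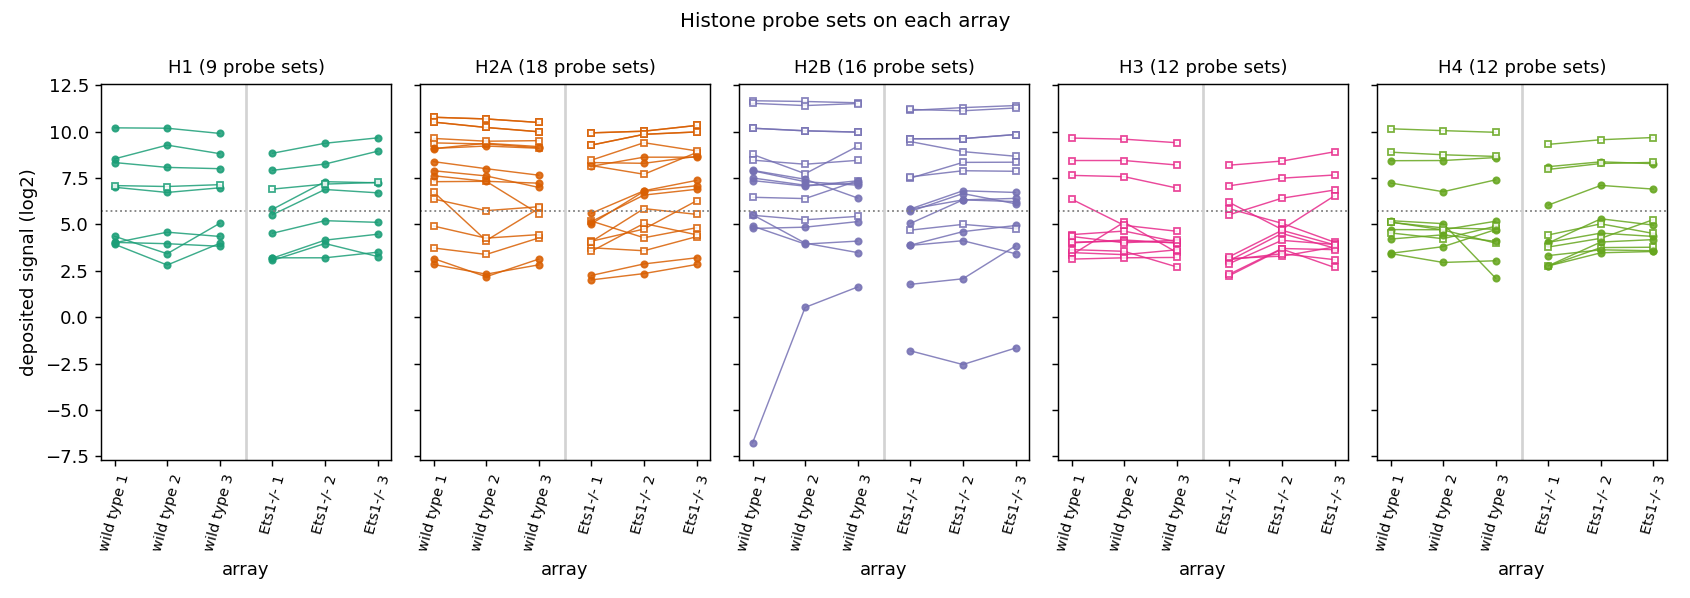
Deposited log2 signal of the histone probe sets on each of the 6 arrays, by class, without the probe set that names both H1 and H2B genes. Filled circles name 1 gene and open squares several, lines join the values of 1 probe set within a group and carry no order, and the dotted line is the 75th percentile of all probe sets (5.73). The brighter probe sets sit lower on the Ets1-/- arrays in most cases, and H2bc1 runs from -6.77 to 1.63 in wild type.

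**Figure D2:**
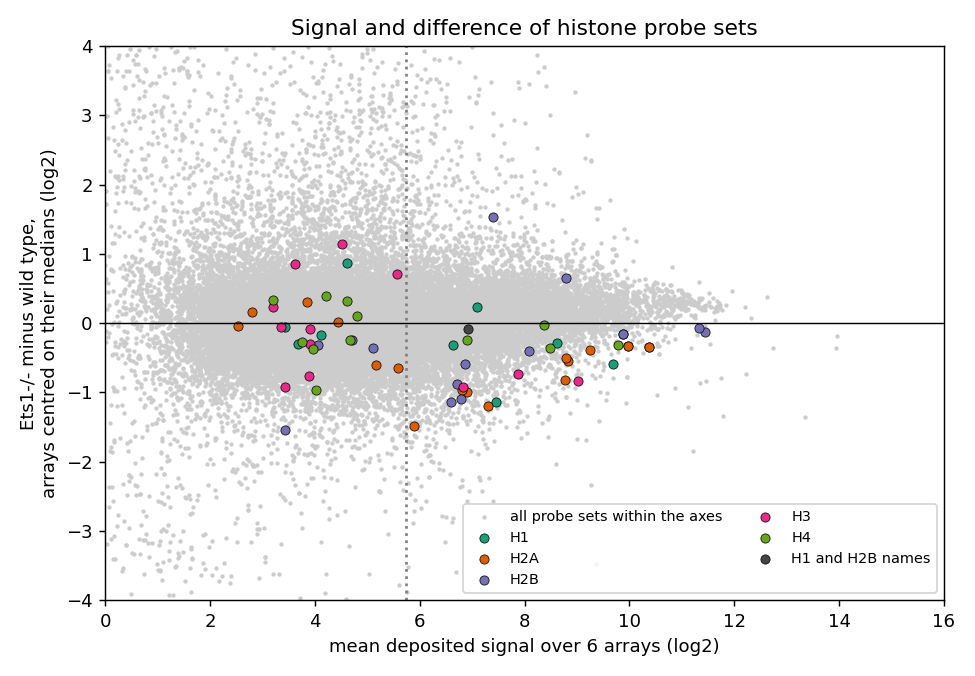
Mean signal over the 6 arrays (x axis, log2) against the difference Ets1-/- minus wild type with arrays centred on their medians (y axis, log2), for the histone probe sets by class and for all probe sets within the axes in grey; H2bc1, with a mean below 0, lies outside. To the right of the dotted line (5.73) 33 of the 36 histone points lie below 0, beside 40.4% of all probe sets above that level.

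H1 linker histones were measured by 9 probe sets, 5 of them brighter. H1f5, the brightest, had values of 10.20, 10.18 and 9.90 in wild type and 8.83, 9.37 and 9.66 in Ets1-/-. The groups did not overlap, and the difference was -0.81 (95% interval -1.48 to -0.13, limma adjusted p = 0.372). H1f1 was at 8.33, 8.07 and 8.0 in wild type and at 5.81, 7.30 and 7.24 in Ets1-/-. All Ets1-/- values were lower, with replicate 1 the lowest, and the difference was -1.35 (-2.41 to -0.29, adjusted p = 0.340), or -1.14 after centring. H1f2 at 8.53, 9.27 and 8.81 against 7.91, 8.25 and 8.94 overlapped, with a difference of -0.50 (-1.35 to 0.35, adjusted p = 0.633). H1f3 overlapped as well, with a difference of -0.53. The replacement histone H1f10 had 2 probe sets at 0.66 and 0.02, the second naming Gm5577 too, and the germ-cell forms H1f6, H1f7 and H1f8 were dim, at -0.27, -0.51 and -0.38.

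As deposited, H2A had the largest share of differences below 0 of the 5 classes, with 17 of 18 (94.4%, beside 71.5% of all probe sets). After centring the share was 83.3% for H2A and 87.5% for H2B, beside 51.5% of all. Among the brighter H2A probe sets 12 of 12 were below 0 (median -0.73, and -0.52 after centring). H2ac10 was at 9.08, 9.37 and 9.19 in wild type and at 8.13, 8.62 and 8.62 in Ets1-/-. The groups lay apart, and the difference was -0.75 (-1.33 to -0.18, limma adjusted p = 0.321). H2ac15 at 9.09, 9.22 and 9.10 against 8.33, 8.29 and 8.66 lay apart too, by -0.71 (-1.22 to -0.21, adjusted p = 0.295). H2ac20, in the smaller cluster on chromosome 3, was at 8.38, 8.0 and 7.65 against 5.60, 6.81 and 7.37, a difference of -1.41 (-2.59 to -0.23, adjusted p = 0.371). These 3 probe sets name 1 gene each, and their Ets1-/- values stayed below the wild-type values after centring.

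The brightest H2A signals came from probe sets that pool copies. A probe set naming 12 H2A genes (17285703) read 10.77, 10.68 and 10.49 in wild type and 9.93, 10.02 and 10.33 in Ets1-/-, a difference of -0.55 (-1.08 to -0.02, limma adjusted p = 0.432). The groups did not overlap as deposited but did after centring, where the difference was -0.34. Probe set 17291023 names the same genes and carried the same 6 values, as did a second probe set for H2ac18, H2ac19 and H2ac20 and a second one for 12 H2B names, so the 68 probe sets hold 65 distinct measurements. The H2ac18 group read 10.51, 10.22 and 9.99 against 9.27, 9.85 and 9.98 (difference -0.54, adjusted p = 0.547). H2ac4 with 9 others (17285867) was at 9.39, 9.33 and 9.13 against 8.17, 7.70 and 8.87, and its groups lay apart both ways (-1.03, adjusted p = 0.337). Among brighter H2A probe sets the median difference was -1.18 for the 5 that name 1 gene and -0.55 for the 7 that name several. That contrast was not tested.

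H2B held both the smallest p among the members and the 1 member whose groups lay apart with Ets1-/- higher. H2bc12 was at 7.89, 7.30 and 7.11 in wild type and at 5.82, 6.32 and 6.23 in Ets1-/-. The groups lay apart, also after centring, and the difference was -1.31 (-2.01 to -0.61, limma adjusted p = 0.166). H2bc3 was at 7.5, 7.11 and 7.21 against 5.05, 6.32 and 6.40, a difference of -1.35 (-2.33 to -0.37, adjusted p = 0.305). Its groups also lay apart in both scalings. H2bc22 was dim at 4.91, 3.94 and 4.10 against 1.77, 2.07 and 3.84 and had the largest negative difference of the members (-1.75, adjusted p = 0.365). H2bc18 and H2bc21 on chromosome 3 were at -1.10 and -0.81.

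Both of the brightest members pool H2B genes. The one naming H2bc6 and 11 others (17285691) read 11.66, 11.62 and 11.55 in wild type and 11.14, 11.29 and 11.40 in Ets1-/- (difference -0.33, -0.81 to 0.14, limma adjusted p = 0.585). The one naming H2bc13, H2bc15, H2bc11 and H2bc7 (17290997) read 11.52, 11.40 and 11.51 against 11.19, 11.12 and 11.27 (-0.28, adjusted p = 0.621). Both sets of values were lower in Ets1-/- without overlap as deposited and overlapped after centring, with differences of -0.12 and -0.07. Another pooled H2B signal (17285710) was at -0.37 and -0.16 in the same scalings. A dimmer probe set for H2bc15, H2bc13, H2bc11 and H2bc7 (17291190) read 8.46, 8.24 and 8.45 against 7.56, 7.89 and 7.86, with groups apart in both scalings (-0.61, limma adjusted p = 0.368), and 17285746 for the same genes was at -0.57.

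A probe set naming H2bc4, H2bc8 and H2bc6 (17285851) went the other way. It read 6.46, 6.39 and 7.35 in wild type and 7.49, 8.34 and 8.35 in Ets1-/-. All 3 Ets1-/- values were above all wild-type values, and the difference was 1.32 (0.39 to 2.26, limma adjusted p = 0.290), or 1.54 after centring (0.85 to 2.22, adjusted p = 0.0857). A second probe set for the same 3 genes (17285834) overlapped between groups at 8.77, 7.73 and 9.21 against 9.46, 8.92 and 8.67 (difference 0.44, -0.62 to 1.51). Another, which also names H1f4, read 7.0, 7.15 and 7.07 against 6.30, 6.96 and 7.07 (-0.29, adjusted p = 0.688). These 3 probe sets share the same H2B gene names, and their estimates did not have the same sign.

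H3 had 12 probe sets, all naming several genes, and only 3 were brighter. Of the 12, 8 were below 0 (66.7%) and 4 above it, beside 71.5% of all probe sets below 0. After centring the shares below 0 were 66.7% and 51.5%. The one naming H3c15 and 7 others (17400555) was at 9.65, 9.59 and 9.40 in wild type and at 8.19, 8.41 and 8.91 in Ets1-/-. Its groups lay apart, also after centring, and the difference was -1.05 (-1.67 to -0.42, limma adjusted p = 0.209). The one naming H3c10, H3c1, H3c11 and H3c8 (17285680) was at 8.44, 8.44 and 8.20 against 7.08, 7.49 and 7.66, a difference of -0.95 (-1.52 to -0.37, adjusted p = 0.216). Another naming the same 4 genes (17291008) read 7.64, 7.57 and 6.96 against 5.52, 6.41 and 6.85 (-1.13, adjusted p = 0.387). The groups lay apart in all 3 as deposited, where 19.6% of all brighter probe sets had groups apart with Ets1-/- lower. Only the last of the 3 overlapped after centring, where that share was 9.76%. Among the 9 dimmer H3 probe sets a dim one for the same 4 genes (17285821) was at -0.97, and the others ran from -1.13 to 0.93.

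H4 was brightest in probe sets that pool copies. The probe set naming H4c17 and 5 others (17285706) read 10.15, 10.05 and 9.96 in wild type and 9.31, 9.56 and 9.68 in Ets1-/-. The groups did not overlap as deposited, the difference was -0.53 (-1.04 to -0.03, limma adjusted p = 0.429), and after centring it was -0.32 with overlap. The one naming H4c17 and 12 others (17291208) was at 8.89, 8.75 and 8.66 against 7.96, 8.28 and 8.34 (-0.57, adjusted p = 0.411) and stayed apart after centring. H4c12, which has a probe set of its own, was at 8.43, 8.44 and 8.60 against 8.11, 8.37 and 8.27. Ets1-/- values were lower without overlap as deposited, by -0.24 (-0.72 to 0.24, limma adjusted p = 0.666), and overlapped after centring, at -0.03. A dim probe set naming H4c17 and 12 others (17291019) was at 5.13, 4.70 and 3.99 against 2.76, 3.75 and 3.77 (-1.17, adjusted p = 0.389), with groups apart in both scalings, and H4c1 overlapped at -0.58. Of the 12 H4 probe sets 9 were below 0 (75%, near the 71.5% of all probe sets), with a range of -1.17 to 0.19. After centring the shares were 66.7% and 51.5%.

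**Figure D3:**
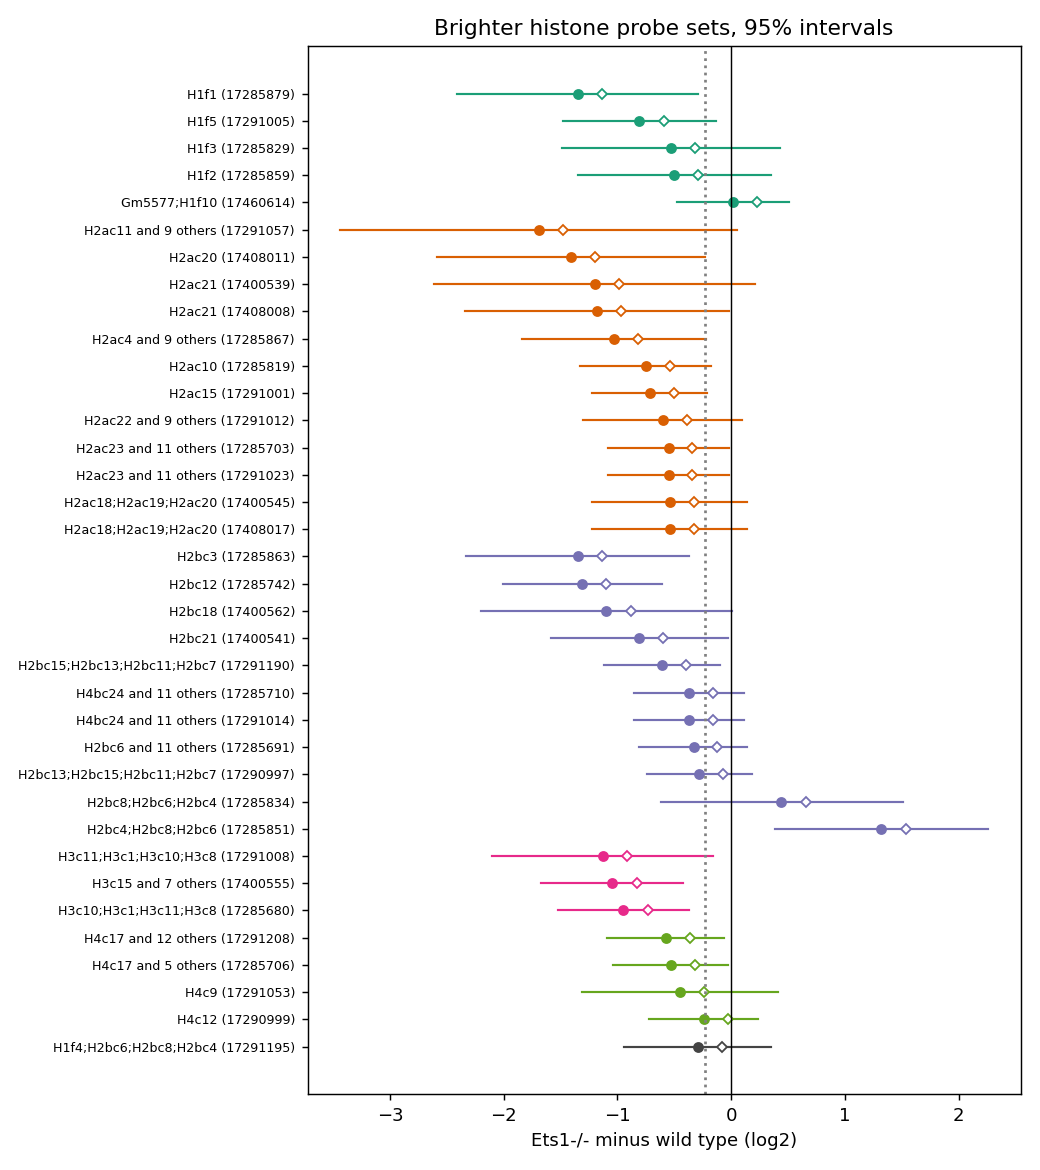
Difference Ets1-/- minus wild type (log2) of the 36 brighter histone probe sets, with probe set IDs. Filled circles and bars are the estimate and 95% limma interval on the deposited values, open diamonds the estimate with arrays centred on their medians, and the dotted line is the median of all probe sets (-0.23). H2bc12 has the interval -2.01 to -0.61, and the probe set naming H2bc4, H2bc8 and H2bc6 lies at 1.32.

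The class medians over all their probe sets were -0.50 for H1, -0.66 for H2A, -0.50 for H2B, -0.41 for H3 and -0.45 for H4, and after centring -0.29, -0.45, -0.29, -0.19 and -0.24. Differences between classes were not tested. By cluster, the 44 probe sets whose genes all lie on chromosome 13 had a median of -0.53, with 86.4% below 0 (RefSeq, GRCm38.p6). The 8 on chromosome 3 alone had a median of -0.95, with 8 of 8 below 0, beside 71.5% of all probe sets. After centring the medians were -0.32 for chromosome 13 and -0.74 for chromosome 3. The 8 include a repeated measurement (17400545 and 17408017) and no H1 probe set, so the sets are unlike. The contrast between clusters was not tested. The 7 probe sets of replacement or germ-cell histones had a median of -0.27 (-0.05 after centring) and a range of -0.51 to 0.66. Of these, 0 had groups that lay apart with Ets1-/- lower, beside 14.7% of all probe sets.

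How many members pass depends on how the spread is modelled. With an intensity trend and a robust prior in limma, 10 of 68 were called lower and 0 higher, where 0.878% of all probe sets were called lower. They were H2ac10, H2ac15, H2bc12, both copies of the 12-gene H2A probe set, the pooled H2B probe sets 17285691 and 17290997, H3 probe sets 17400555 and 17285680 and H4 probe set 17285706. Adjusted p in this limma fit ran from 0.0156 for 17400555 to 0.0462 for H2bc12. The fit used the deposited values without centring. After centring, the groups overlapped for both copies of the 12-gene H2A probe set, 17285691, 17290997 and 17285706. The differences of 17285691 and 17290997 were then -0.12 and -0.07. The others called in this fit stayed apart after centring. After 16 was added to the linear signals and arrays were centred on their medians, a setting chosen after the data were seen, 3 were called lower, where 0.900% of all probe sets were: H2ac10, 17285680 and 17400555 (adjusted p = 0.0486, 0.0324 and 0.0494).

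Genes that make, cut and destroy histone mRNA were examined from a separate list. By limma 0 of 22 measured genes were called, with a median difference of -0.44 (-0.23 after centring). At an unadjusted limma p under 0.05, 5 were lower (22.7%, beside 7.42% of all probe sets) and 0 higher (3.64% of all). After centring 3 were lower (13.6%, beside 4.75% of all). Slbp, which binds the stem-loop, was at 8.34 ± 0.27 in the wild-type arrays and at 7.06 ± 0.56 in the others (SD, n = 3 for both). Its groups lay apart, and the difference was -1.27 (limma adjusted p = 0.249). The exonuclease Eri1, which trims histone mRNA ends, and the terminal uridyltransferase Tut7 were at -0.61 and -0.64. Cyclin E1 (Ccne1) and Cdk2, which together activate Npat at the start of S phase, were at -1.01 and -1.25. Npat, the coactivator of histone gene transcription, was at -0.48, Casp8ap2, which joins the cutting complex, at -0.56, and the U7 particle proteins Lsm10 and Lsm11 at 0.21 and -0.34.

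A list for histone transcription, with promoter factors and also Cdc25a, gave 0 calls among 14 measured genes (median -0.49, and -0.28 after centring). At an unadjusted limma p under 0.05, 1 was higher (3.64% of all probe sets) and 3 were lower (21.4%, beside 7.42% of all). These 3 were Hinfp, an activator of H4 genes, at -0.66, E2f3 at -1.65 and Cdc25a at -1.33. Cdc25a is a phosphatase that activates Cdk2, not a promoter factor. Pou2af1, the B-cell coactivator that binds Oct factors on octamers, had 4.20 in wild type and 7.18 in Ets1-/- (2.98, limma adjusted p = 0.0941). It was called with arrays centred on their medians (adjusted p = 0.0387), in a comparison where B-cell markers were also higher. Histone chaperones gave 0 calls among 21, with a median of -0.34. After centring it was -0.13, with 13 below 0 and 8 above it. At an unadjusted limma p under 0.05, 3 were lower as deposited (14.3%, beside 7.42% of all probe sets). These were Asf1b, which hands H3-H4 to the replication fork, at -1.65, and the chromatin assembly factor subunits Chaf1a and Chaf1b at -2.32 and -1.09. For Chaf1a the Ets1-/- values were 3.49, 5.91 and 6.24, with replicate 1 the lowest. Nasp, which stores free histones, was at -0.49.

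Variant histones outside the clusters were measured by 8 genes. H2ax, the variant phosphorylated at DNA breaks, was at 9.38 in wild type and 8.35 in Ets1-/- (-1.03, limma adjusted p = 0.298), the centromeric H3 variant Cenpa at -0.73 and H2az2 at -0.54. H2az1 was at -0.13 and H2aj at 0.13. Of the 8, 0 were called, and 4 were lower at an unadjusted limma p under 0.05 (7.42% of all probe sets). After centring 2 were lower (4.75% of all). H1f10 belongs both to this list and to the members.

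Genes of DNA replication and mitosis had medians further below 0 than all 68 histone probe sets in the same fit, but the sets are unlike. Each list gene was read from its brightest probe set naming it alone, while the members include pooled and dim probe sets. Among brighter histone probe sets naming 1 gene, the medians were -0.67 for 4 of H1, -1.18 for 5 of H2A, -1.2 for 4 of H2B and -0.35 for 2 of H4. Among 41 replication genes 1 was called lower: Clspn, a checkpoint mediator at forks, fell by 2.12 on the log2 scale, from 7.22 to 5.10 (limma adjusted p = 0.0345), and this call was lost in each of the 6 fits that dropped 1 array. The list's median was -1.03 (-0.81 after centring), with 41 of 41 below 0 as deposited, beside 71.5% of all probe sets. At an unadjusted limma p under 0.05, 22 were lower (53.7%, beside 7.42% of all probe sets). After centring 18 were lower (43.9%, beside 4.75% of all). Uhrf1, Lig1, Rrm2, Tyms, Mcm5 and Pcna were at -2.10, -1.41, -1.08, -0.78, -1.10 and -0.52, and Mcm2, which is also a histone chaperone, at -0.34. Of 25 mitosis genes 0 were called, with a median of -1.26 (-1.05 after centring). At an unadjusted limma p under 0.05, 24 were lower (7.42% of all probe sets), and the groups lay apart for 25 of 25 (14.7% of all). After centring these counts were 23 (4.75% of all) and 22 (8.41% of all). Bub1b was at -1.56 (adjusted p = 0.0695), Top2a at -1.03, Mki67 at -1.15, Ccnb2 at -1.26 and Ccna2 at -0.85. Whether the histone and replication differences differ from each other was not tested. In bulk RNA, fewer cells in S phase and less histone mRNA in each such cell cannot be told apart.

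**Figure D4:**
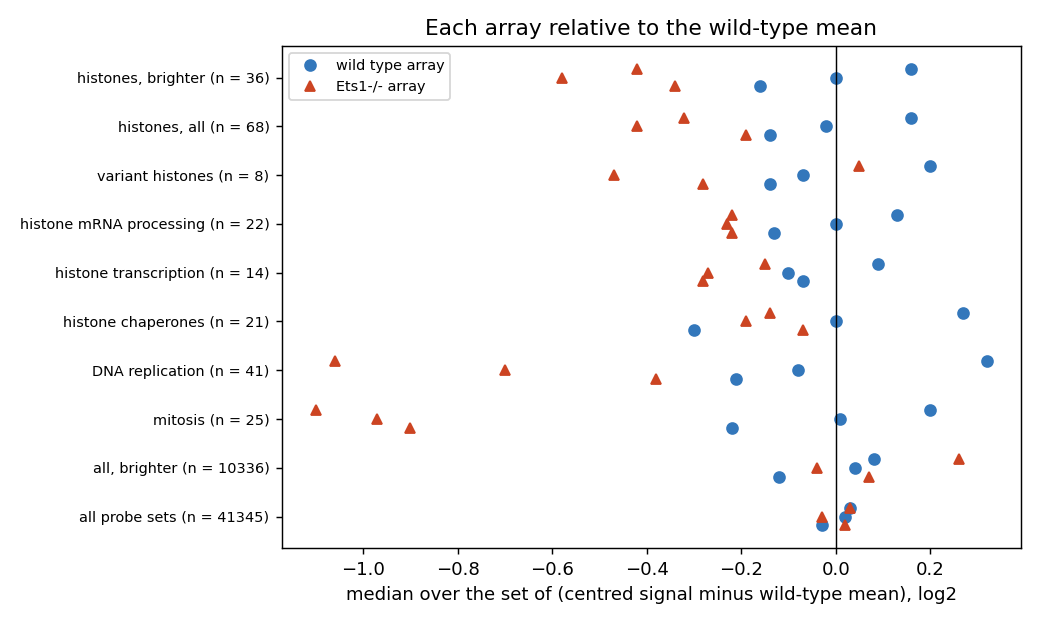
For each set and array, the median over the set of the centred signal minus that probe set's wild-type mean (log2), with circles for wild-type and triangles for Ets1-/- arrays. The brighter histone probe sets lie at -0.34 to -0.58 on the Ets1-/- arrays, the mitosis genes at -0.90 to -1.10 and the replication genes at -0.38 to -1.06, while all probe sets lie at -0.03 to 0.03.

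Markers of other cells were higher in the Ets1-/- arrays for several cell types. Rose or fell here means called by limma at an adjusted p under 0.05, as were 269 higher and 77 lower of all 41345 probe sets. More markers had groups apart with Ets1-/- higher (5.17% of all probe sets). They were 13 of 16 for macrophages, 9 of 10 for B cells, 7 of 13 for double-negative thymocytes, 5 of 11 for dendritic cells, 5 of 7 for plasma cells and 7 of 9 for mature T cells. Of 16 measured macrophage markers 11 rose and 0 fell, and the log2 of their summed signal was 9.61 to 9.91 in wild type and 12.00 to 12.45 in Ets1-/-. Of 10 B-cell markers 3 rose (Fcrla, Ms4a1 and Cd79a), with summed signals of 6.54 to 7.03 and 8.69 to 9.76. Of 13 markers of double-negative thymocytes, the preceding stage, Cd44 and Il2ra rose and 0 fell, with sums of 8.83 to 9.15 and 10.32 to 10.63. Of this list 4 were below 0, among them Notch1 at -0.94 and Mycn at -0.56, both with groups apart, while Kit was at 0.10 and Notch3 at -0.04. The summed signal of the double-positive list was 14.30 to 14.36 and 14.29 to 14.37, and that of the brighter histone probe sets was 14.46 to 14.66 and 13.84 to 14.24. Of 11 dendritic cell markers 4 rose (H2-Aa, H2-Ab1, H2-Eb1 and Irf8) and 0 fell, with sums of 8.77 to 8.90 and 11.58 to 11.71. Among the others Xcr1 was at -1.15, Zbtb46 at -0.38, Batf3 at -0.25, Ccr7 at -0.07 and Flt3 at 0.03, and 1 of the 11 was lower at an unadjusted p under 0.05 (Xcr1). Of 7 plasma cell markers 2 rose (Jchain and Mzb1), and of 9 markers of mature T cells 3 rose (Klf2, S1pr1 and Ms4a4b), with sums of 7.91 to 7.98 and 9.62 to 11.16 for the first list and 10.22 to 10.36 and 10.87 to 11.07 for the second. In the mature T cell list Cd52 was at -0.46, with groups apart and Ets1-/- lower as deposited, and overlapped after centring. Ccr7, also in that list, was at -0.07, and Cr2 of the B-cell list was at -0.32 with overlap. By limma 0 of 5 erythroid and 0 of 10 thymic epithelial markers were called, with 0 and 1 at an unadjusted p under 0.05 and sums of 5.39 to 6.66 and 7.09 to 8.36 over all arrays. Ms4a1 lay near the bottom of the scale in wild type, at a mean of 0.04. The part of these other cells in the histone values was not tested.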

How the data were processed

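Total RNA of double-positive thymocytes from 3 wild-type and 3 Ets1-/- samples was measured on Affymetrix arrays. The authors deposited log2 signals for 41345 probe sets, made with the affy package per the submitters' processing notes. The sources used here do not give its version, the background correction, the normalization or the build. Of all values, 1.63% were below 0. Symbols came from the platform annotation, and promoters and chromosomes from RefSeq (GRCm38.p6).

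Groups were compared with limma 3.58.1 (R 4.3.3; lmFit and eBayes) on all probe sets as deposited, with no filter, no joining of probe sets and Benjamini-Hochberg adjustment at 0.05. This model was checked on simulated arrays, where changes of the size of most differences reported for the members were seldom or never called after adjustment. Tables were joined in pandas 2.3.3 and numpy 2.4.6 (Python 3.11.15), and matplotlib 3.10.9 drew the plots. The number of arrays limits the precision, and an exact permutation test of 3 against 3 cannot go below a two-sided p of 0.1.

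The members and all gene lists were chosen with earlier results of these data known. Named in each class were those past the threshold, the 4 with the smallest p and the 3 brightest, and in other lists up to 6 with the smallest p plus a fixed set of genes. H3f3a, H3f3b and Ccne2 were not analysed here. Genes of several lists can be the same (Mcm2, Npat, Hira). No replicate block was used. Alternatives were other normalizations, variance models, filters and sets of arrays. A ranking of genes by likeness to the histone probe sets was not run.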

Additional observations from a re-analysis of the deposited data

How the results depend on the processing

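Histone probe sets had a median difference below 0 under every alternative run, and 0 were called lower except in 2 settings. These were 10 with an intensity trend and robust prior (H2A 4, H2B 3, H3 2, H4 1) and 3 with a pseudocount of 16 and centred arrays (H2A 1, H3 2), the latter chosen after seeing the data. The number at an unadjusted p under 0.05, 22 as deposited, was 14 with centred arrays (4.75% of all probe sets), 11 with centred arrays without Ets1-/- replicate 1 (5.67%), and 8 to 21 with each array left out in turn (4.70% to 8.17%). It was 26 with quantile normalization (6.24% of all), 21 with cyclic loess (5.13%) and 22 with array weights (8.64%). The trend and robust prior gave 30 (7.42%), a pseudocount of 16 gave 31 (8.35%), and that pseudocount with centred arrays gave 24 (5.70%). The number whose groups did not overlap, 30 as deposited, was 18 with centred arrays (8.41% of all), 30 with quantile normalization (10.7%) and 29 with cyclic loess (8.85%). With 1 array left out it was 30 to 38 (16.4% to 26.6%), where 2 against 3 arrays overlap less often by construction. Replication genes called lower (1 as deposited) were 5 with the trend and robust prior, 3 with a pseudocount of 16, 2 above the median signal, 6 with a pseudocount of 16 and centred arrays, 0 with centred arrays without Ets1-/- replicate 1 and 0 to 0 with each array left out. Mitosis genes called lower (0 as deposited) were 4 with quantile normalization, 1 each with centred arrays, cyclic loess and array weights, 10 with the trend and robust prior, 6 with a pseudocount of 16, 2 above the median signal and 12 with a pseudocount of 16 and centred arrays. In the histone transcription list 1 gene was called higher under each of these 8 settings. The median of the variant histones was -0.24 with a pseudocount of 16 and centred arrays. The causes were not tested. With the replicate number as a block, 11 histone probe sets were lower at an unadjusted p under 0.05 (5.52% of all), 0 were called, and 0 replication genes were called, so Clspn was lost. The labels name litter-mate cohorts as replicates without tying a number to a cohort, and same-numbered arrays did not deviate together (correlations -0.12, -0.03 and -0.22). Dim probe sets and those naming several genes limit what can be said of single histone genes.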
